A study of Oryctolagus cuniculus with 9 samples.

Results

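The genes described here are the matrix metalloproteinases (MMP), the ADAM and ADAMTS metalloproteases and the tissue inhibitors of metalloproteinases (TIMP). They were taken as every row of the deposited tables whose symbol is MMP, ADAM, ADAMTS or TIMP followed directly by a digit, which gave 62 of 19291 genes: 21 MMP, 19 ADAM, 19 ADAMTS and 3 TIMP genes. mRNA had been sequenced from 9 libraries of the cell line HA-VSMC in 3 groups of 3. The control group is labelled without an estradiol concentration, the 50 nM group and the 250 nM group had received β-estradiol, the main ovarian estrogen, and cells were harvested after 48 h. The medium of all groups was RPMI plus fetal bovine serum. Estradiol had been dissolved in DMSO, and the labels do not say whether controls received DMSO. Every sample, controls included, carries the treatment tag estrogen, and the protocol mentions only the 250 nM concentration. The organism is given as the rabbit (Oryctolagus cuniculus), which was not checked, and no label ties the 3 libraries of a group to separate cultures. The p-values here therefore measure only the spread between these libraries, which may be technical.

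MMPs are zinc-dependent endopeptidases that are secreted or held at the cell surface as inactive proenzymes and, once their propeptide is removed, cut collagens, elastin, proteoglycans and other matrix proteins. ADAMs are membrane-anchored relatives that carry a disintegrin domain and release the outer part of surface proteins such as growth factor precursors and Notch receptors, a step called shedding. ADAMTS enzymes are secreted, carry thrombospondin repeats, and cut proteoglycans, procollagens and microfibril proteins. TIMPs block the active site of MMPs, and some of them also that of ADAM or ADAMTS enzymes. In smooth muscle, these proteases take part in cell migration and in remodelling of the vessel wall, and MMPs also take part in the turnover of the uterine lining, the tissue at issue in adenomyosis, the disease that the series names.

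The deposited totals were 54718407 to 72274464 estimated counts per library. Their low values pile up at 4, 8 and 12, so about 4 counts stand for 1 fragment, and the totals correspond to about 13679602 to 18068616 fragments. Of the smooth muscle markers, 8 of 10 were in the table and 5 had a mean of at least 1 FPKM (fragments scaled to transcript length and library size), among them ACTA2, the smooth muscle actin, at 1286 FPKM and MYH11, the smooth muscle myosin heavy chain, at 5.18 FPKM, while DES, which encodes desmin, was at 0. The summed markers of smooth muscle ranged over 2705 to 2866 FPKM in control, 2626 to 2800 FPKM at 50 nM and 2687 to 2741 FPKM at 250 nM. Of 7 fibroblast markers, 6 had at least 1 FPKM, and their sum, which collagen genes dominate, was 3171 to 3251 FPKM in control, 3368 to 3580 FPKM at 50 nM and 3432 to 3556 FPKM at 250 nM. PDGFRA, a fibroblast surface receptor, had 0.359 FPKM. No endothelial, epithelial, leukocyte, or skeletal and cardiac muscle marker in the table reached 1 FPKM. KRT8, KRT18, CD68, LYZ and MYH2 were not in the table. KDR, EPCAM, ESRP1, ITGAM, MYOD1, MYOG, NKX2-5 and ACTC1 were at 0.

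MMP2 and ADAM19 each stood far above the other listed genes of their families in these cells, and TIMP3 far above TIMP1 and TIMP4. The ADAMTS family was more even. Levels are given in FPKM, which is per transcript length and so can be compared between genes. Of the 62 genes, 37 had a mean of at least 1 FPKM over the 9 libraries: 13 MMP, 9 ADAM, 13 ADAMTS and 2 TIMP genes. TIMP3, the inhibitor that stays bound to the matrix and blocks ADAMs and ADAMTS enzymes as well as MMPs, was the most abundant at 1173 FPKM (range 1125 to 1236), rank 49 among all genes of the table. MMP2, the gelatinase that cuts denatured collagen and basement membrane, followed at 615 FPKM (574 to 647), rank 112. ADAM19, a sheddase of neuregulin, came next at 406 FPKM (377 to 418). The ranges of these 3 genes did not overlap.

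Among the MMPs, MMP14 had 209 FPKM (193 to 224) and MMP19 119 FPKM (113 to 124). MMP14 is the membrane-type protease that activates the MMP2 proenzyme at the cell surface. MMP2 alone made up 55.2% ± 0.305 of the summed MMP FPKM in control, 55.7% ± 0.866 at 50 nM and 56.0% ± 1.45 at 250 nM (SD, n = 3 each). MMP9, the other gelatinase, had 38.4 FPKM. The collagenase MMP1 and the stromelysin MMP3 stood at 24.9 and 24.2 FPKM with overlapping ranges (19.8 to 29.0 and 17.8 to 30.1). Membrane-bound MMP16 had 21.7 FPKM, the matrilysin MMP7 19.8 FPKM, and MMP11, MMP15, MMP12, MMP28 and MMP17 between 3.66 and 10.8 FPKM. MMP10, MMP13 and MMP24 were tested but stayed under 1 FPKM, MMP21 was too low to test, and MMP8, MMP20, MMP26 and MMP27 were listed at 0 in all 9 libraries.

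ADAM19 made up 49.0% ± 1.20 of the summed ADAM FPKM in control, 49.6% ± 0.510 at 50 nM and 50.4% ± 1.24 at 250 nM (SD, n = 3 each). ADAM9, a broadly expressed sheddase, had 156 FPKM (144 to 169), and ADAM28 had 147 FPKM (140.0 to 154), with overlapping ranges. Within libraries, ADAM28 exceeded ADAM9 only in replicate 3 of the 50 nM group (150.3 against 143.6 FPKM). ADAM17, the main sheddase of TNF and of EGF-receptor ligands, had 45.6 FPKM. ADAM10, which cuts Notch receptors, had 32.0 FPKM. ADAM15, ADAM23, ADAM12 and ADAM8 lay between 1.37 and 14.8 FPKM. ADAM23 and its relatives ADAM11 and ADAM22 lack a working catalytic site. ADAM1A, ADAM7 and ADAM11 were tested but stayed under 1 FPKM, ADAM21, ADAM22, ADAM30 and ADAM33 were too low to test, and ADAM6, ADAM6A and ADAM18 were listed at 0.

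The ADAMTS genes were led by ADAMTS1 at 108 FPKM (96.6 to 122) and ADAMTS5 at 68.4 FPKM (62.1 to 73.6), both of which cut the large proteoglycans versican and aggrecan. ADAMTS2, which trims the amino end of fibrillar procollagens, had 62.2 FPKM (58.4 to 64.4), and ADAMTS7, which cuts cartilage oligomeric matrix protein and acts in smooth muscle migration, had 42.4 FPKM (38.3 to 47.4). ADAMTS1 made up 32.6% ± 1.32 of the summed ADAMTS FPKM in control, 29.6% ± 1.13 at 50 nM and 30.8% ± 0.760 at 250 nM (SD, n = 3 each). The procollagen proteases ADAMTS3 and ADAMTS14 were lower, at 12.5 and 4.65 FPKM. ADAMTS12, ADAMTS6, ADAMTS20, ADAMTS9, ADAMTS10, ADAMTS15 and ADAMTS19 lay between 4.04 and 15.3 FPKM. ADAMTS4, an aggrecanase, and ADAMTS8 were tested but stayed under 0.1 FPKM in every library. ADAMTS13 and ADAMTS17 were too low to test, and ADAMTS16 and ADAMTS18 were listed at 0.

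TIMP3 exceeded TIMP1, the secreted and inducible inhibitor, by 11.8-fold ± 1.11 in control, 11.9-fold ± 0.494 at 50 nM and 12.2-fold ± 0.836 at 250 nM in FPKM (SD, n = 3 each). TIMP4 was listed at 0. No gene was listed under the symbol TIMP2, so it was not analysed here and TIMP3 could not be compared with it. In all, 10 of the 62 genes were at 0 in every library. A count of 0 allows up to 3 fragments in a library, which is 12 estimated counts or 0.167 to 0.220 CPM (counts scaled to library size with TMM factors), and this limit covers counting error only.

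**Figure D1:**
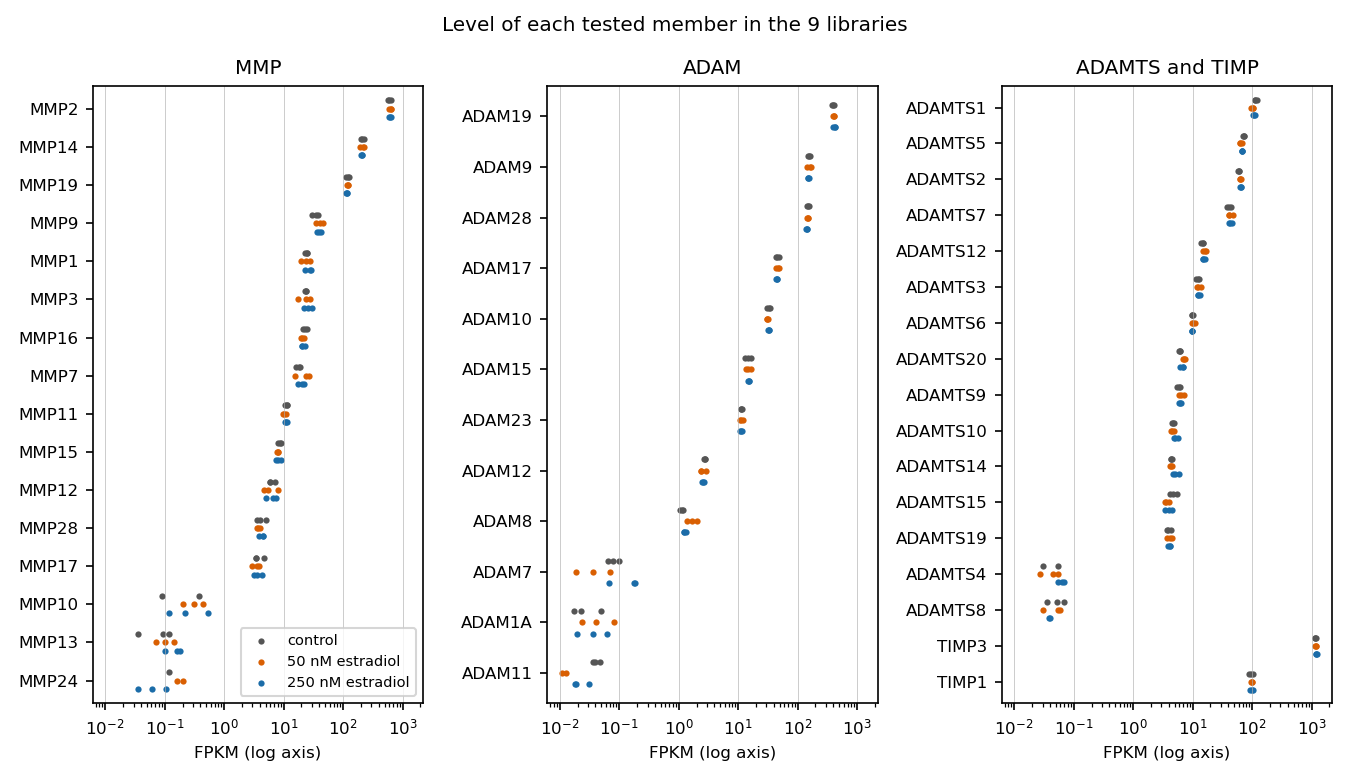
FPKM (log axis) of each of the 45 tested genes, by family; each point is 1 library, colours mark the 3 groups, and libraries at 0 are not drawn. TIMP3, MMP2 and ADAM19 stand highest with means of 1173, 615 and 406 FPKM, 8 genes lie below 1 FPKM, and the points of the groups lie close together for the genes above it.

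For each of the 3 comparisons between groups, differences were tested with edgeR on all 12324 genes that passed the filter on low counts, 45 of them among the 62 (16 MMP, 12 ADAM, 15 ADAMTS and 2 TIMP genes). The others, 10 of them at 0, had at most 18 counts in any library. Both estradiol groups were compared with the same 3 control libraries. Values between groups are in CPM, fold changes are on the log2 scale with their standard error, and p-values are adjusted over all 12324 genes with a threshold of 0.05.

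At 50 nM, 2 of the 45 genes passed against control, ADAM8 and ADAMTS20, and both were higher. Over all genes tested, 3.25% passed and 1.55% passed as higher, and 2 of 45 is near that background. At an unadjusted p under 0.05, 7 of the 45 genes were higher and 4 lower, while 15.6% of all genes had such a p. For 7 genes the control and 50 nM libraries did not overlap (4 higher, 3 lower), against 19.0% of all genes. The median log2 fold change of the 45 genes was 0.06, with 30 above 0 and 15 below, beside a median of -0.00 over all genes. In bulk RNA, fewer cells that express a gene and less of its RNA per cell cannot be told apart.

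ADAM8 encodes a surface protease best known from leukocytes, where it sheds adhesion molecules. It had 3.02, 2.94 and 2.70 CPM in control, 3.66, 4.40 and 5.37 CPM at 50 nM and 3.13, 3.44 and 3.17 CPM at 250 nM. All 50 nM libraries lay above all control libraries, and those at 250 nM lay between the other groups without overlap. The difference at 50 nM was 0.63 ± 0.16 (95% interval 0.29 to 0.97), a 1.55-fold increase (edgeR adjusted p = 0.0410). ADAM8 was a low gene, with 181 to 293 estimated counts (about 4 per fragment) in each library and 1.37 FPKM on average. Of 7 leukocyte markers, CD68 and LYZ were not in the table. The summed level of the other 5 was 0 to 0.181 FPKM in control, 0.0580 to 0.154 FPKM at 50 nM and 0 to 0.253 FPKM at 250 nM, and ITGAM was at 0. Which cells the ADAM8 RNA came from was not tested.

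ADAMTS20, a large versican-cleaving protease related to ADAMTS9, had 35.6, 37.7 and 36.6 CPM in control, 45.6, 44.3 and 42.0 CPM at 50 nM and 42.6, 42.6 and 38.3 CPM at 250 nM. Every library of either estradiol group lay above every control library. The increase at 50 nM was 0.26 ± 0.07 (95% interval 0.12 to 0.41), or 1.20-fold (edgeR adjusted p = 0.0425). Both calls were close to the threshold. Leaving out single libraries gave edgeR adjusted p-values of 0.029 to 0.159 for ADAM8, which passed only when 50 nM replicate 1 was the library left out (0.029). For ADAMTS20 they were 0.0287 to 0.158, and it passed only when 50 nM replicate 3 was left out (0.0287). Neither gene passed in limma fits to log2 FPKM, at adjusted p = 0.0767 to 0.105 for ADAM8 and 0.168 to 0.184 for ADAMTS20.

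Behind these, the smallest p-values at 50 nM belonged to ADAMTS12 and ADAMTS1. ADAMTS12, which cuts cartilage oligomeric matrix protein, had 135, 131 and 135 CPM in control and 157, 163 and 141 CPM at 50 nM, without overlap (0.20 ± 0.06, edgeR adjusted p = 0.0987). ADAMTS1 had 574, 576 and 618 CPM in control and 544, 515 and 531 CPM at 50 nM, all of them below all controls (-0.15 ± 0.05, edgeR adjusted p = 0.132). At 250 nM it had 581, 566 and 552 CPM, which overlapped the control group. ADAMTS5 had the same sign as ADAMTS1, with 203, 212 and 208 CPM in control and 198, 191 and 182 CPM at 50 nM, without overlap (-0.13 ± 0.05, edgeR adjusted p = 0.238). ADAMTS15, a further proteoglycan protease, was chosen after its values were seen and had 31.2, 27.1 and 23.9 CPM in control and 24.4, 21.1 and 21.5 CPM at 50 nM (-0.30 ± 0.11, edgeR adjusted p = 0.162). Its control libraries spread so widely that the groups overlapped. The procollagen protease ADAMTS2 had 396, 409 and 384 CPM in control, 426, 431 and 436 CPM at 50 nM and 432, 439 and 426 CPM at 250 nM, with both estradiol groups above control. Its differences were 0.12 ± 0.05 and 0.13 ± 0.05, and neither passed (edgeR adjusted p = 0.215 and 0.425).

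**Figure D2:**
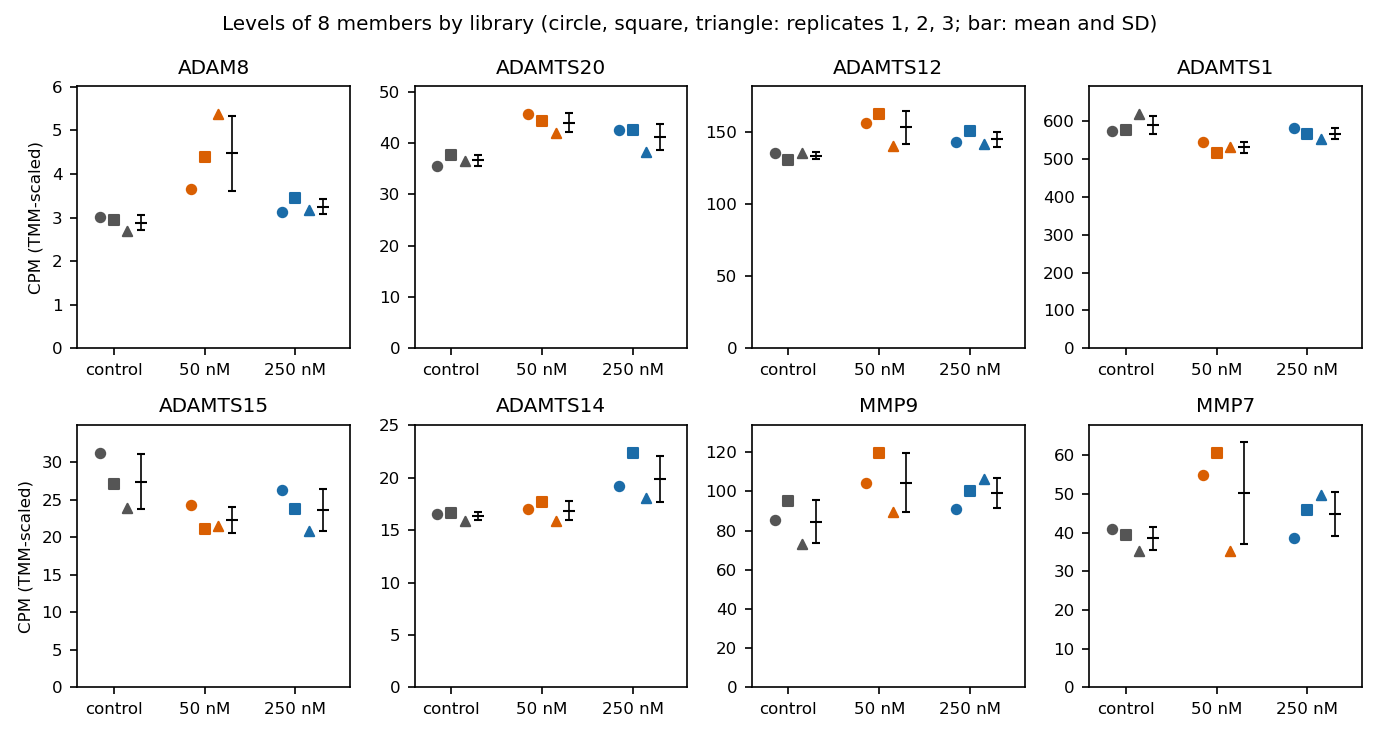
CPM by group of 8 genes with small p-values in the comparisons, 1 panel per gene with its axis from 0; circles, squares and triangles are replicates 1, 2 and 3, and bars show the mean and SD (n = 3). ADAM8 and ADAMTS20 lie higher at 50 nM than in control without overlap, ADAMTS1 lies lower, and MMP7 has replicate 3 of the 50 nM group at 35.4 CPM, in the control range.

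Neither gelatinase passed at 50 nM. MMP9 had 85.6, 95.3 and 73.0 CPM in control, 104, 119.5 and 89.4 CPM at 50 nM and 91.3, 100.2 and 106 CPM at 250 nM. The groups overlapped, and the differences of 0.30 ± 0.10 and 0.23 ± 0.10 did not pass (edgeR adjusted p = 0.144 and 0.555). MMP2 had 2513, 2707 and 2426 CPM in control, 2773, 2883 and 2546 CPM at 50 nM and 2585, 2837 and 2716 CPM at 250 nM, again with overlap (0.10 ± 0.06 and 0.09 ± 0.06, edgeR adjusted p = 0.440 and 0.738). MMP14 and MMP19 differed by 0.06 ± 0.07 and 0.05 ± 0.05 at 50 nM and by less than their SE at 250 nM. The sheddases ADAM9, ADAM17, ADAM19 and ADAM28 had differences of 0.08 ± 0.06, 0.08 ± 0.06, 0.10 ± 0.05 and 0.06 ± 0.05 at 50 nM, and none passed (edgeR adjusted p from 0.406 to 0.662).

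Single libraries bore on this comparison. Leaving out any library but 50 nM replicate 3 lowered the calls over all genes from 401. They then ranged from 187 without control replicate 3 to 359 without control replicate 1. Without 50 nM replicate 3, the calls rose to 564, or from 3.25% to 4.51% of those tested, and those higher from 1.55% to 2.66%. Of the 46 genes of these families tested in that fit, 4 passed at 50 nM, all higher: ADAMTS12 (0.25 ± 0.06, edgeR adjusted p = 0.0175), ADAMTS20 (0.30 ± 0.07, edgeR adjusted p = 0.0287), MMP9 (0.40 ± 0.10, edgeR adjusted p = 0.0297) and MMP7 (0.58 ± 0.10, edgeR adjusted p = 0.00363). ADAM8, whose highest value is in that library, did not pass without it (edgeR adjusted p = 0.123). With all libraries, MMP7, chosen after its values were seen, had 40.9, 39.5 and 35.1 CPM in control and 54.8, 60.5 and 35.4 CPM at 50 nM (0.38 ± 0.15, edgeR adjusted p = 0.202). Replicate 3 alone lay within the control range. MMP7 and MMP9 passed only without replicate 3, their lowest 50 nM library, and under no other alternative.

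At 250 nM, none of the 45 genes passed against control with edgeR, DESeq2 or limma-voom, and with edgeR 0.308% of all genes passed. At an unadjusted p under 0.05, 5 of the 45 genes were higher and 0 lower, against 8.67% of all genes in either direction. The groups did not overlap for 9 genes (8 higher, 1 lower), against 15.5% of all genes. The median log2 fold change was 0.08, with 34 genes above 0 and 11 below, beside -0.00 over all genes.

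ADAMTS14, a procollagen protease like ADAMTS2, had the smallest p at this dose. It had 16.6, 16.6 and 15.9 CPM in control, 17.0, 17.7 and 15.9 CPM at 50 nM and 19.2, 22.3 and 18.1 CPM at 250 nM. The 250 nM libraries lay above those of both other groups, but neither the difference from control (0.28 ± 0.09, edgeR adjusted p = 0.303) nor that from 50 nM (0.23 ± 0.09, edgeR adjusted p = 0.632) passed. TIMP3 had 6151, 6430.2 and 6096 CPM in control, 6711, 6738 and 6362 CPM at 50 nM and 6649, 6957 and 6595 CPM at 250 nM. At 250 nM all its libraries exceeded the controls, by 0.11 ± 0.04 (edgeR adjusted p = 0.425), while at 50 nM the groups overlapped (0.09 ± 0.04, edgeR adjusted p = 0.367). ADAMTS20 stayed above control at 0.17 ± 0.07 and ADAM8 at 0.17 ± 0.16, and neither passed (edgeR adjusted p = 0.448 and 0.854).

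TIMP1 had 236, 206 and 220.0 CPM in control, 235, 229 and 235 CPM at 50 nM and 215, 237 and 244 CPM at 250 nM, with overlap between all groups (0.08 ± 0.06 and 0.07 ± 0.06, edgeR adjusted p = 0.632 and 0.841). The ratio of the highest listed inhibitor to the highest listed protease, TIMP3 to MMP2 in FPKM, was 1.91 ± 0.0535 in control, 1.89 ± 0.0632 at 50 nM and 1.94 ± 0.0600 at 250 nM (SD, n = 3 each). Its ranges overlapped between all groups, at 1.85 to 1.96, 1.82 to 1.95 and 1.89 to 2.01.

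Between the doses, none of the 45 genes differed at an adjusted p under 0.05 with edgeR, DESeq2 or limma-voom, and with edgeR 0.325% of all genes did. At an unadjusted p under 0.05, 3 were higher and 1 lower at 250 nM, against 5.68% of all genes. The groups did not overlap for 5 genes (3 higher, 2 lower), against 11.5% of all genes, and the median was -0.01 beside -0.00 over all genes. ADAM8 lay lower at 250 nM than at 50 nM without overlap, with a difference of -0.46 ± 0.16 that missed the threshold (edgeR adjusted p = 0.536). Its response to 50 nM was therefore not shown to differ from that to 250 nM. ADAMTS20 differed between the doses by -0.09 ± 0.07 (edgeR adjusted p = 1). ADAMTS10, a protease of fibrillin microfibrils, had 24.8, 24.0 and 22.6 CPM in control, 23.2, 25.8 and 22.1 CPM at 50 nM and 25.9, 29.5 and 25.3 CPM at 250 nM (0.18 ± 0.08 between the doses, edgeR adjusted p = 0.861). A test of any difference between the 3 groups passed for 0 of the 45 genes with edgeR and for 1.86% of all genes. At an unadjusted p under 0.05 it held for 10 of the 45 and for 12.0% of all genes, and DESeq2 passed 1 of the 52 it tested, ADAMTS20 (adjusted p = 0.0234), and 3.44% of all genes it tested.

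**Figure D3:**
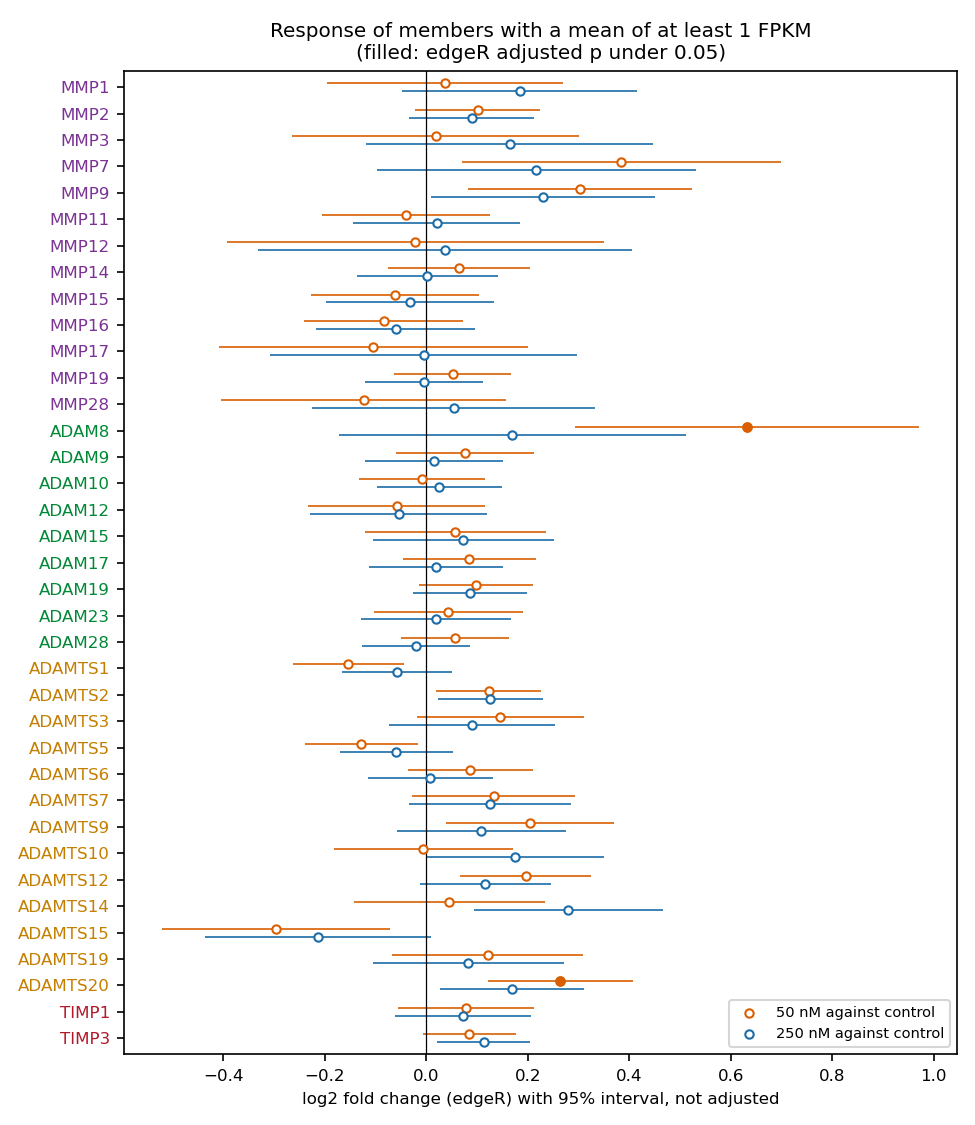
Log2 fold change against control at 50 nM and at 250 nM for the 37 genes with a mean of at least 1 FPKM, by family; bars show the 95% interval, not adjusted, and filled points passed at an adjusted p of 0.05. The filled points are ADAM8 and ADAMTS20 at 50 nM, at 0.63 and 0.26.

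The most extreme fitted fold changes came from genes at the limit of detection, whose counts are given without a fold. MMP24, a membrane-type protease mainly of the nervous system, had 0, 0 and 14 counts in control, 17, 24 and 0 at 50 nM and 12, 4 and 8 at 250 nM. ADAM11, a catalytically inactive ADAM, had 12, 16 and 14 counts in control, 4, 4 and 0 at 50 nM and 6, 6 and 12 at 250 nM. At about 4 counts per fragment, each of these values rests on a handful of fragments at most. ADAMTS4 had 28, 0 and 16 counts in control, 24, 14 and 20 at 50 nM and 30, 32 and 31 at 250 nM. ADAMTS8 had 24, 16 and 33 counts in control, 24, 26 and 12 at 50 nM and 0, 16 and 21 at 250 nM. ADAM7, a gene known mainly from the epididymis, had 25, 19 and 17 counts in control, 8, 18 and 4 at 50 nM and 41, 15 and 51 at 250 nM. None of the 5 passed in any comparison. ADAM11 was lower at 50 nM than in control without overlap (edgeR unadjusted p = 0.0222, adjusted p = 0.215), and ADAM7 was higher at 250 nM than at 50 nM with overlap (edgeR unadjusted p = 0.0132, adjusted p = 0.577).

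Several MMP genes lie side by side, and those of them that were expressed were among the genes with the widest spread between replicates. In the gene order of the RefSeq assembly mOryCun1.1, used for neighbours only, 9 MMP genes follow each other on chromosome 1: MMP7, MMP20, MMP27, MMP8, MMP10, MMP1, MMP3, MMP12 and MMP13, with 1 other coding gene between MMP20 and MMP27. MMP1, MMP3 and MMP7 had 24.9, 24.2 and 19.8 FPKM, and MMP12, the elastase best known from macrophages, 6.23 FPKM. The 5 others had 0.255 FPKM or less. The members of this row named from here on were chosen after their values were seen.

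MMP1 had 45.9, 51.9 and 49.9 CPM in control, 59.4, 50.8 and 41.4 CPM at 50 nM and 57.6, 49.1 and 60.9 CPM at 250 nM. MMP3 had 43.5, 44.5 and 41.8 CPM in control, 52.2, 46.0 and 33.4 CPM at 50 nM and 47.7, 41.0 and 56.8 CPM at 250 nM. MMP12 had 11.6, 14.5 and 11.9 CPM in control, 16.6, 11.5 and 9.44 CPM at 50 nM and 13.3, 10.6 and 15.1 CPM at 250 nM. All 3 genes had their lowest of 9 values in replicate 3 of the 50 nM group, and within each estradiol group the libraries differed more than the group means did. Differences from control were 0.04 ± 0.11, 0.02 ± 0.13 and -0.02 ± 0.17 at 50 nM and 0.18 ± 0.11, 0.16 ± 0.13 and 0.04 ± 0.17 at 250 nM, and none passed (edgeR adjusted p from 0.703 to 0.982).

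**Figure D4:**
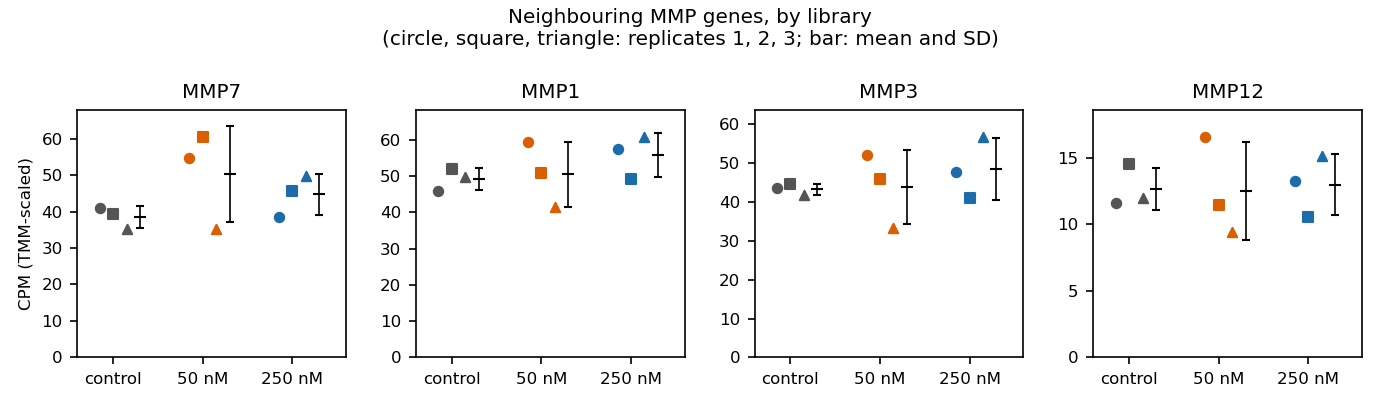
CPM by group of the neighbouring genes MMP7, MMP1, MMP3 and MMP12, 1 panel per gene with its axis from 0; circles, squares and triangles are replicates 1, 2 and 3, and bars show the mean and SD (n = 3). MMP1, MMP3 and MMP12 are lowest in replicate 3 of the 50 nM group, at 41.4, 33.4 and 9.44 CPM.

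The spread between replicates was measured as the SD of log2 CPM within groups, over genes with a mean of at least 5 CPM. Its median was 0.0899 for the 36 genes described here that reach that level and 0.0984 for all 9143 such genes. The widest were MMP12 with 0.30, MMP7 with 0.27, MMP3 with 0.24 and MMP17 with 0.23, above 99.4%, 99%, 97.6% and 97.3% of all such genes, MMP17 chosen likewise after its values were seen. MMP1 and MMP9 followed at 0.18 and 0.18. Among the tightest were ADAMTS2 with 0.03, ADAM28 with 0.04 and TIMP3 with 0.04, at percentiles 1.3, 2.99 and 5.13. The spread bears on what the tests could resolve, but the SE of a difference does not follow it alone. At 50 nM against control the SE was 0.17 for MMP12 and 0.04 for TIMP3. It was 0.05 for ADAMTS2, whose spread was tighter than that of TIMP3.

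**Figure D5:**
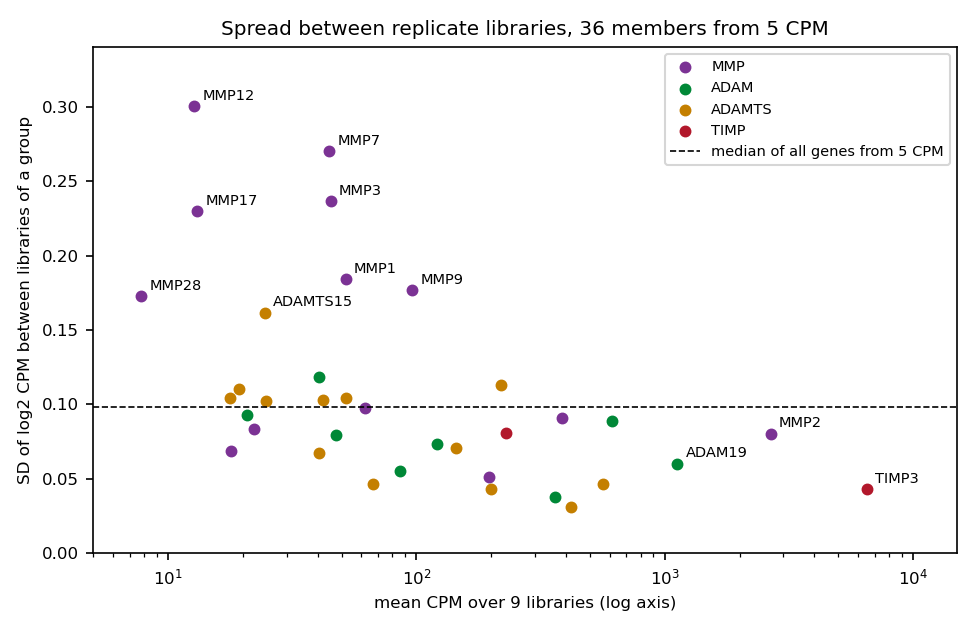
SD of log2 CPM between libraries of a group against mean CPM (log axis) for the 36 genes with at least 5 CPM, coloured by family; the dashed line is the median of all 9143 such genes, 0.0984. MMP12, MMP7, MMP3 and MMP17 lie highest, and TIMP3 lies below the line at 0.04.

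Genes that work with these proteases were described from 4 lists, each by its counts from the same test, to be read against the 3.25%, 0.308% and 0.325% of all genes that passed in the 3 comparisons and medians of -0.00 over all genes. Among 26 tested activators, anchors and other inhibitors, 3 rose and 0 fell at 50 nM, 1 rose and 0 fell at 250 nM, and 0 differed between the doses. PLAU, the urokinase that generates plasmin, an activator of MMP proenzymes, was among those that rose at 50 nM, by 0.34 ± 0.06 (edgeR adjusted p = 0.00493). THBS1, a matrix glycoprotein that binds MMPs, rose by 0.50 ± 0.06 at 50 nM and 0.32 ± 0.06 at 250 nM (edgeR adjusted p = 0.000325 and 0.0393). The median of the list was 0.18 at 50 nM, 0.12 at 250 nM and -0.05 between the doses.

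Of 31 tested proteins that ADAMs shed, 2 rose and 1 fell at 50 nM, 2 rose and 0 fell at 250 nM, and 0 differed between the doses. SDC4, a surface proteoglycan, rose by 0.92 ± 0.10 at 50 nM and 0.69 ± 0.10 at 250 nM (edgeR adjusted p = 5.88e-05 and 0.00492). HBEGF, whose precursor is cut by ADAM17 and other ADAMs to release the growth factor, rose by 0.76 ± 0.10 and 0.49 ± 0.10 (edgeR adjusted p = 0.000349 and 0.0393). KITLG, the ligand of the receptor KIT, fell by 0.27 ± 0.06 at 50 nM (edgeR adjusted p = 0.0316). ADAM17 and ADAM10, which do much of this shedding, did not pass in any comparison. ADAM17 had 112, 125 and 116 CPM in control, 127, 132 and 117 CPM at 50 nM and 116, 122 and 121 CPM at 250 nM, and ADAM10 differed from control by -0.01 ± 0.06 and 0.03 ± 0.06. The medians of the list were 0.02, 0.03 and -0.01.

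In the list of 24 tested matrix substrates and ADAMTS-like proteins, 3 rose and 0 fell at 50 nM, 1 rose and 0 fell at 250 nM, and 0 differed between the doses, with medians of 0.11, 0.11 and -0.02. COL1A1 and COL1A2, which encode the chains of collagen I and whose products ADAMTS2, ADAMTS3 and ADAMTS14 process, each rose by 0.18 ± 0.04 at 50 nM (edgeR adjusted p = 0.0260 and 0.0159), and COL1A1 rose by 0.22 ± 0.04 at 250 nM (edgeR adjusted p = 0.0401). HAPLN1, a link protein of hyaluronan and proteoglycans, rose by 0.59 ± 0.15 at 50 nM from a low level of 3.70 CPM (edgeR adjusted p = 0.0499). The summed fibroblast markers given above, of which COL1A1 is one, were likewise higher in both estradiol groups without overlap, and their part in these results was not tested.

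Of 18 tested transcription factors known to act on MMP promoters, 3 rose and 3 fell at 50 nM, 1 rose and 1 fell at 250 nM, and 3 were higher and 0 lower at 250 nM than at 50 nM, with medians of 0.16, 0.11 and -0.01. The immediate early factor EGR1 fell by 2.87 ± 0.16 at 50 nM and was higher by 2.38 ± 0.15 at 250 nM than at 50 nM (edgeR adjusted p = 3.93e-08 and 1.4e-06). The AP-1 genes FOS and JUN fell by 1.55 ± 0.10 and 0.23 ± 0.05 at 50 nM (edgeR adjusted p = 3.61e-07 and 0.0279) and were higher by 0.93 ± 0.10 and 0.34 ± 0.05 at 250 nM than at 50 nM (edgeR adjusted p = 0.000366 and 0.00933). FOS also fell by 0.61 ± 0.10 at 250 nM against control (edgeR adjusted p = 0.0146). The ETS-family genes ETS2 and ETV5 rose by 0.40 ± 0.07 and 0.41 ± 0.08 at 50 nM (edgeR adjusted p = 0.00372 and 0.0101). REL, an NF-κB subunit, rose by 1.56 ± 0.20 and 1.08 ± 0.20 at the 2 doses (edgeR adjusted p = 0.000418 and 0.0288). None of the 16 tested MMP genes passed in any of the 3 comparisons, in which MMP medians were 0.05 at 50 nM, 0.07 at 250 nM and 0.03 between the doses.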

How the data were processed

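For every library, the authors deposited an estimated count and an FPKM value per gene. Trim Galore, TopHat2 2.1.1, Cufflinks and Cuffdiff are named in the submitters' processing notes; which of them made which table, and likewise the genome build, the annotation and the use of strand, is not given in the sources used here, so genes that overlap or resemble each other could share counts. The labels name a small RNA kit for the mRNA libraries. The deposited counts were already whole numbers, so no rounding was needed. The ratio of a gene's deposited estimated count to its FPKM was compared between libraries after removal of a common factor per library. It deviated by at most 0.629% in 9224 genes above a minimum count and FPKM in every library. Libraries of a group differed by more than sampling noise, so none was merged. Columns of other samples numbered 0.

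The 62 genes and the 4 lists of related genes were chosen with earlier results of these data known. Genes were kept by filterByExpr (minimum count 10) and tested with edgeR 4.0.16 in R 4.3.3 (quasi-likelihood test, TMM factors, all 9 libraries, Benjamini-Hochberg adjustment over 12324 genes). The biological coefficient of variation was 8.92%. Genes are named with values if they passed a test, if they are among the 4 of smallest p in a pairwise comparison or the 4 of highest mean FPKM in a family, if they have the most extreme fitted fold change, or if they are a TIMP; others were chosen after their values were seen or are given by level. Sequences are not analysed here. The values of 1 gene of the lists are not reported here. Of the 62 symbols, 61 matched RefSeq (mOryCun1.1), used for names and neighbours.

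Alternatives were RLE and upper-quartile factors, DESeq2 1.42.0, limma-voom (limma 3.58.1), no filter, a filter of 5 CPM in 3 libraries, only the 2 groups compared, the replicate number as a block, counts divided by 4, limma on log2(FPKM + 1) with and without a filter and on log2(FPKM + 0.1), calls restricted to a log2 fold change from 0.5, and the omission of each library in turn.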

Additional observations from a re-analysis of the deposited data

How the results depend on the processing

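The count of 2 genes higher at 50 nM became 4 of 52 tested with DESeq2 (ADAM8, ADAMTS12 and ADAMTS20 higher, ADAMTS1 lower), beside 4.47% of all genes. With limma-voom it was 1 of 45 (ADAMTS20), beside 3.05%. With the filter of 5 CPM, which leaves ADAM8 out, it was 1 of 36 (ADAMTS20), beside 4.45%. With a log2 fold change of at least 0.5 it was 1 of 45, beside 137 of all 12324 genes. With only the groups compared it was 0 of 44, beside 2.00% of all genes. On each of the 3 FPKM scales it was 0, beside 1.58% to 2.63%. Leaving out single libraries gave 0 to 4. With the replicate block the count was 2 of 45, beside 3.99% of all genes. There, ADAM8 (edgeR adjusted p = 0.0519) was replaced by ADAMTS15, which was lower (-0.29 ± 0.07, edgeR adjusted p = 0.0420). Deviations of same-numbered libraries correlated at -0.20 to 0.313 and those of differently numbered ones at -0.368 to 0.353; the 3 pairs of replicate 2 lay at 0.116 to 0.313, but not every same-numbered pair exceeded 0.1, so the numbers were not taken to pair the libraries. ADAM8 passed under 6 of 20 alternatives (log2 fold change 0.33 to 0.76) and ADAMTS20 under 9 of 21 (0.18 to 0.30), with no change of direction. The low ends, 0.33 and 0.18, came from log2(FPKM + 1). On log2(FPKM + 0.1) the values were 0.53 and 0.21. Counts of 0 for 250 nM against control and against 50 nM held under every alternative run. Over all genes, the alternative fits called 0.0270% to 0.852% and 0.0743% to 0.656% in these comparisons. For any difference the count was 1 with DESeq2, beside 3.44% of all genes. When single libraries were left out it was 0 to 1, beside 0.979% to 2.71% (MMP7 without 50 nM replicate 3, edgeR adjusted p = 0.0116). The median of the 45 genes at 50 nM was 0.0107 on log2(FPKM + 1) and 0.0108 on log2(FPKM + 0.1), beside -0.0409 and -0.0520 over all genes, and 0.00469 over 52 genes without a filter, beside -0.0245. With single libraries left out it was 0.0362 to 0.117 over 45 or 46 genes. At 250 nM the FPKM scales gave 0.0351, 0.0446 and 0.0118, beside -0.0334, -0.0415 and -0.0204 over all genes. In both comparisons with control it lay above the median of all genes under 21 of 21 alternatives. These alternatives refit the same 9 libraries and are not independent. Between libraries of a group, the median log2 level of the 45 genes varied with an SD of 0.0384. The cause of the changes between alternatives was not tested. Over all genes, alternatives called 137 to 661 genes at 50 nM, 4 to 126 at 250 nM, 11 to 97 between the doses and 81 to 509 for any difference, DESeq2 the most. With 3 libraries a group and about 4 counts per fragment, genes of a few fragments could not be resolved.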

Other observations

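Besides the row of MMP genes, 3 pairs of these genes neighbour each other in the gene order of mOryCun1.1, and their levels show both like and unlike neighbours. ADAMTS5 and ADAMTS1, adjacent proteoglycan proteases on chromosome 4, had 68.4 and 108 FPKM, the highest of the ADAMTS genes, and both lay lower at 50 nM than in control without overlap of the libraries (-0.13 ± 0.05 and -0.15 ± 0.05 on the log2 scale), although neither passed (edgeR adjusted p = 0.238 and 0.132). ADAMTS15, adjacent to ADAMTS8 on chromosome 1, had 4.14 FPKM beside 0.0420 FPKM. ADAM28, with 1 coding gene between it and ADAM7 on chromosome 2, had 147 FPKM beside 0.0887 FPKM. These pairs were looked at after their values were seen.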
